A study of Mus musculus with 4 samples.

Results

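Signal was measured for 10 genes tied to the ERK cascade in mouse embryonic stem cells. Among them were the MAP kinase phosphatase genes Dusp4 and Dusp6 and the Sprouty and Spred genes Spry2, Spry4 and Spred1. The others were the immediate early genes Egr1, Fos and Ier3, the ETS factor gene Etv5 and the Ras exchange factor gene Rasgrp3. The protein of Rasgrp3 acts at the input of the cascade. The genes were taken by symbol from the deposited array table, as rows whose platform annotation gives 1 symbol alone. The brightest row was kept where a gene had several. All 10 of 10 were found among 19938 genes measured. The cells were E14, a line of mouse embryonic stem cells, infected with lentivirus carrying an shRNA against Usp22 (2 arrays) or a Luc control shRNA (2 arrays). Both groups grew without feeders on gelatin in 20% FBS and LIF, with 1 µM PD0325901, which inhibits MEK, and 3 µM CH99021, which inhibits GSK3. The MEK inhibitor was thus shared by all 4 arrays, and no array without it was used here, so its own effect on these genes was not measured. The labels do not say that replicates were separate cultures or infections, and all 4 arrays come from 1 cell line. The p-values therefore rest on differences between samples that may be only technical.

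In the ERK cascade, Ras proteins that have been loaded with GTP by exchange factors switch on RAF kinases, which activate MEK, which activates ERK. Active ERK induces immediate early genes within minutes and also induces its own brakes: dual-specificity phosphatases remove the activating phosphates from MAP kinases, while Sprouty and Spred proteins act higher up, between receptor, Ras and RAF. In mouse embryonic stem cells ERK signalling promotes exit from naive pluripotency, and blocking MEK, as PD0325901 does, helps to hold that state. Usp22 is the deubiquitinating enzyme of the SAGA coactivator complex, and the comparison asks which of these genes differ in signal when it is depleted.

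Each value below is a quantile-normalized log2 signal unless a deposited linear intensity is named. A gene is said to rise or fall only where limma's Benjamini-Hochberg adjusted p over all 19938 genes was under 0.05. With 2 residual degrees of freedom, limma estimated infinite prior degrees of freedom, so a shared variance replaced that of each gene. The standard error was thus 0.27 (log2) for all genes, and the smallest change called in either direction was 0.86. Standard errors, intervals and p-values below therefore do not reflect a gene's own spread. With the variance fitted as a trend over intensity, the standard error was 0.33 for the dim Rasgrp3 and 0.14 for the bright Etv5. A gene is without overlap where both arrays of one group lay beyond both arrays of the other. The receptor background, 6.99, is the 95th percentile of the mean signals of 1190 olfactory and vomeronasal receptor genes. It is a guide only, since probe sets differ in brightness for reasons other than RNA amount. The targeted gene Usp22 read 9.41 and 9.36 in controls against 8.23 and 8.29 in depleted cells. It fell by 1.12 on the log2 scale (limma adjusted p = 0.00826). With 1 array left out, its log2 fold change ran from −1.15 to −1.09. All 10 stem cell markers listed were above the receptor background, among them Pou5f1, Nanog and Zfp42. Their summed deposited intensity ran from 14654 to 15122 in controls and from 14486 to 14726 in depleted cells. At an unadjusted limma p under 0.05, 2 of them were lower and 1 was higher, and 0 rose or fell. Of the markers of cells that could be mixed in, 4 of 8 for fibroblasts, 3 of 7 for primitive endoderm and 3 of 5 for trophectoderm were above it. The summed deposited intensity of the fibroblast list ran from 1073 to 1366 in controls and from 986 to 1067 in depleted cells, that of the primitive endoderm list from 792 to 1036 and from 624 to 682, and that of the trophectoderm list from 1270 to 1340 and from 967 to 1015. In the limma fit 0 of these marker genes rose or fell, and at an unadjusted p under 0.05 2 of the fibroblast, 0 of the primitive endoderm and 2 of the trophectoderm markers were lower. These sums were not scaled between arrays, and on the deposited log2 values the median log2 fold change of all genes was −0.24. The part of such cells in the results below was not tested. Fewer cells of a type and less RNA per cell cannot be told apart in these bulk samples.

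Of the 10 genes, 2 rose after Usp22 depletion, Rasgrp3 and Ier3, and 0 fell. Over all genes tested, 2.62% rose and 0.105% fell. At an unadjusted limma p under 0.05, 5 of the 10 were higher and 2 lower, against 15.4% and 6.63% of all genes. Without overlap 5 of the 10 were higher, namely Rasgrp3, Ier3, Dusp4, Dusp6 and Spred1, and 3 were lower, namely Egr1, Spry2 and Spry4. Etv5 and Fos overlapped between the groups. Of all genes, 27.4% were higher and 33.3% lower without overlap. Among these 10 the share lower was thus near the background and the share higher above it. The 10 were chosen with earlier results of these data known, so such shares only describe them. A difference of 1.5-fold or more without overlap was found for Rasgrp3, Ier3 and Dusp4 (3 of 10) in the higher and for Egr1 (1 of 10) in the lower direction, against 12.1% and 3.35% of all genes. With 2 arrays in each group, the smallest two-sided p of an exact permutation test is 0.333 for any gene. By the mean over the 4 arrays, 5 of the 10 lay above the receptor background, namely Dusp6, Spry2, Spry4, Ier3 and Etv5, as did 48.9% of all genes. The median log2 fold change of the 10 was 0.25, against −0.12 for all genes. Its sign turned with dim genes left out: the members above the receptor background had a median of −0.049, against −0.027 for all 9753 genes above it, and the median was also −0.049 for the members left when the dimmest 0.25 of genes were dropped. Leaving out control replicate 2 gave a median of 0.064, and leaving out control replicate 1 gave 0.41. Of the feedback inhibitor genes among the 10, Dusp4, Dusp6 and Spred1 were higher without overlap in the depleted group and Spry2 and Spry4 lower, and none of the 5 passed the test.

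**Figure D1:**
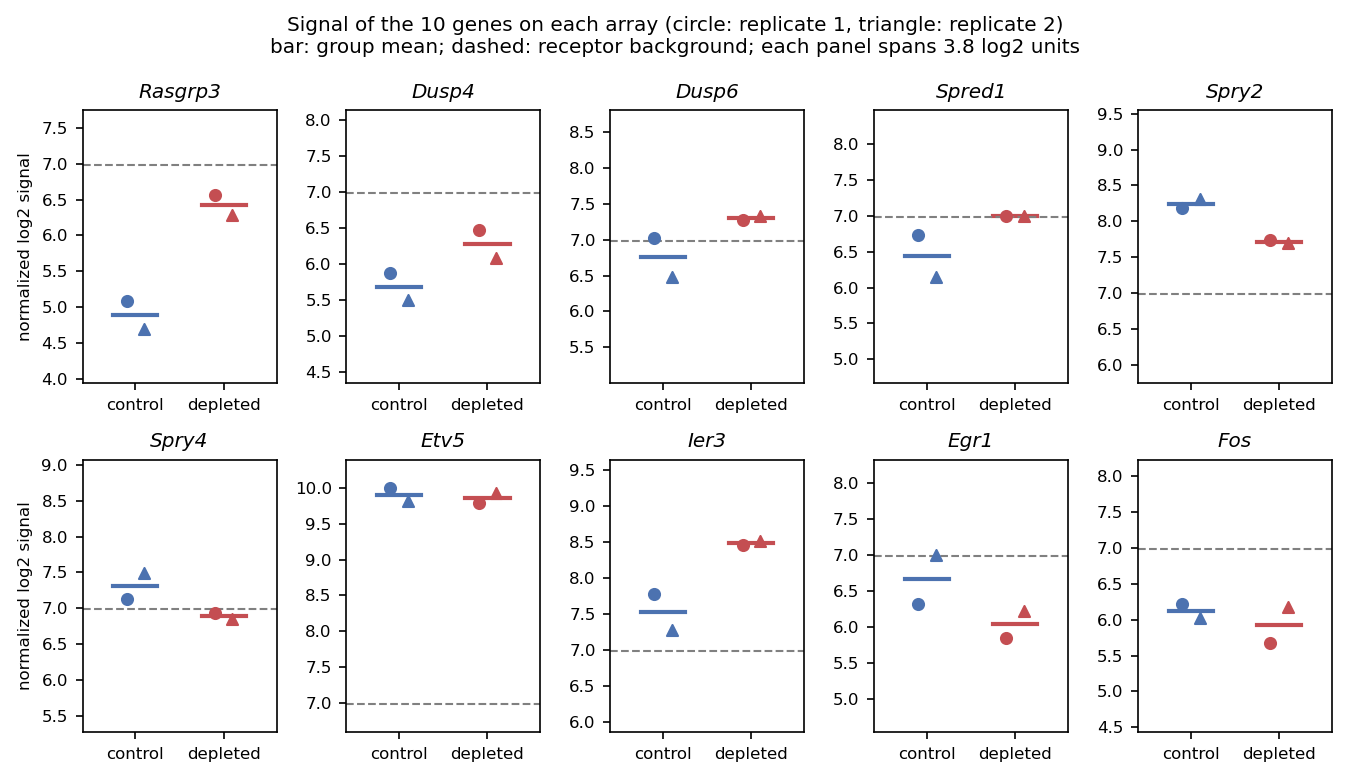
Normalized log2 signal of the 10 genes on the 4 arrays, with control in blue and Usp22-depleted in red; circles are replicate 1, triangles replicate 2, bars the group means, the dashed line is the receptor background at 6.99, and every panel spans the same number of log2 units. Rasgrp3 and Ier3 have the widest gaps between the groups, while the depleted and control arrays of Etv5 and Fos overlap.

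Rasgrp3 encodes a guanine nucleotide exchange factor that loads Ras and Rap proteins with GTP in response to diacylglycerol, and so stands at the input of the cascade. It read 5.09 and 4.70 in controls against 6.56 and 6.28 in depleted cells. The deposited intensities behind these were 35.8 and 26.7 against 85.7 and 76.1. Both depleted arrays lay above both controls, by 1.19 between the nearest pair on the log2 scale, and the pairs within a group were 0.39 and 0.28 apart. The rise was 2.88-fold (log2 fold change 1.53, standard error 0.27, 95% interval 1.00 to 2.05, limma adjusted p = 8.53e-05). Rasgrp3 stayed under the receptor background on all 4 arrays, so its rise was one between dim signals. It was still called without control replicate 1 (1.72) and without control replicate 2 (1.33), but not without depleted replicate 1 (1.39) or depleted replicate 2 (1.66). Without a depleted array, the lone one was assumed to vary like the control pair. The standard error was then 0.40 for Rasgrp3 and for Usp22, and Usp22 was not called either. The lost call was thus not particular to Rasgrp3. The genes most like Rasgrp3, by the root mean square difference over the 4 arrays after each gene was centred on its mean, were Srgn (0.060), Crygd (0.079) and Slco4c1 (0.097). Within 0.25 of it lay 78 of 17439 genes with an official symbol.

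Its relatives give the setting. Of the other Ras exchange factor genes of the same family, chosen after their values were seen, Rasgrp1 stood at 0.81 (limma adjusted p = 0.0672), Rasgrp2 at 0.58 and Rasgrp4 at −0.35. Rasgrp1 and Rasgrp2 were higher and Rasgrp4 lower without overlap, and these signs were the same under each of the 3 scalings. None of the 3 passed the test. Rasgrp1 and Rasgrp2 were dim like Rasgrp3, with mean signals below the receptor background.

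Ier3 is an immediate early gene whose protein is an ERK substrate and has roles in cell survival. It read 7.78 and 7.28 in controls against 8.46 and 8.51 in depleted cells. In deposited intensity this was 224 and 162 against 359 and 374. The depleted arrays lay within 0.051 of each other and above both controls, which lay 0.50 apart, and all 4 were above the receptor background. Ier3 rose 1.93-fold (log2 fold change 0.95, standard error 0.27, 95% interval 0.43 to 1.48, limma adjusted p = 0.0289). The call was lost on the deposited log2 values with no further scaling (0.94, limma adjusted p = 0.0742). With 1 array left out, the log2 fold change ranged from 0.70, without control replicate 2, to 1.20, without control replicate 1. Ier3 kept its call without control replicate 1 and lost it without control replicate 2. The call was also lost without depleted replicate 1 (0.98) or depleted replicate 2 (0.93), as was that of Usp22. The genes most like it over the 4 arrays were Lrrc8c (root mean square difference 0.013), Maneal (0.025) and the aldolase gene Aldoc (0.032). Within 0.25 of Ier3 lay 2712 of 17439 genes, so its profile was a common one in this table.

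The 250 bases before the annotated start are shown for Ier3 and Rasgrp3, the pair that rose, and for Fos, the immediate early gene whose groups overlapped. They come from RefSeq on the build GRCm38.p6, all on the plus strand. The letters TATAA on the coding strand are in capitals, a motif chosen after the sequences were seen.
Ier3, chr17:35821463-35821712: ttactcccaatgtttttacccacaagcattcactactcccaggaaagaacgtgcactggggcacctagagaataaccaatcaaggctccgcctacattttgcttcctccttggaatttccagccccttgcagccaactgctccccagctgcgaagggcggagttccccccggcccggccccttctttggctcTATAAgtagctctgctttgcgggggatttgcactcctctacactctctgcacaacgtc
Rasgrp3, chr17:75435655-75435904: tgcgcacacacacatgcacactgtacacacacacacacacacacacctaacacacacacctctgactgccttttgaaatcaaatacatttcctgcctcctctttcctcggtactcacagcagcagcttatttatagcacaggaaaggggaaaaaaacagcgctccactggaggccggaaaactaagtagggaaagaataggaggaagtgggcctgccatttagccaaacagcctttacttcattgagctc
Fos, chr12:85473640-85473889: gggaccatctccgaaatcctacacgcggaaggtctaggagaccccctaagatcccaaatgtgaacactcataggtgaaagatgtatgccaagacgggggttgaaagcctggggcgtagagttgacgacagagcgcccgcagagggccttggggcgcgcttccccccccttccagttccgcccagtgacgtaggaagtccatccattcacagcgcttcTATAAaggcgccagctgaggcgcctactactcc
TATAA began 58 bases before the start of Ier3 and 33 bases before that of Fos, and was in neither Rasgrp3 window. Among all 32851 promoter windows of this length, 5255 held it. RefSeq gave windows for 7 of the 10 genes, 9 in all, since Etv5 and Rasgrp3 had 2 starts each; Dusp4, Egr1 and Spry4 had none in the table used. On both strands, 0 of the 9 windows held the CArG box bound by SRF (1.47% of all windows) or the ETS-type letters CCGGAAG (6.91%). Likewise 0 held the AP-1 letters TGANTCA (6.75%) or the CRE letters TGACGTCA (1.55%). Shorter or variant forms of these sites were not searched for. These are matches of letters in a short window and say nothing about binding further away.

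Egr1 and Fos, the classical immediate early transcription factor genes, did not pass the test. Egr1, a zinc finger factor induced by serum and growth factors, read 6.32 and 7.01 in controls against 5.85 and 6.22 in depleted cells. Both depleted arrays were lower than both controls, but the nearest pair was only 0.092 apart, and control replicate 2 alone lay above the receptor background. The log2 fold change was −0.62 (standard error 0.27, limma adjusted p = 0.161), and it was −0.28 without control replicate 2 against −0.97 without control replicate 1. Fos, which pairs with Jun proteins to form AP-1, read 6.22 and 6.02 in controls and 5.67 and 6.17 in depleted cells. Its groups overlapped, all 4 values were under the receptor background, and the log2 fold change of −0.20 (limma adjusted p = 0.601) had a 95% interval of −0.73 to 0.32. Without depleted replicate 1 the value for Fos was 0.051.

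The relatives of Egr1 and Fos, chosen after their values were seen, were mostly lower too, and none of them passed the test. Egr2, Egr3 and Egr4 stood at −0.51, −0.38 and −0.35, each without overlap, as 33.3% of all genes were in the lower direction. Fosb, Fosl1 and Fosl2 stood at −0.48, −0.36 and −0.44, likewise without overlap. Of the Jun genes, Junb (−0.46) and Jund (−0.58) were lower and Jun (0.46) was higher, while the nuclear receptor genes Nr4a1, Nr4a2 and Nr4a3 stood at −0.54, −0.50 and −0.59. All of these kept their sign under each of the 3 scalings. Several depended on 1 array: without control replicate 2 Egr2 stood at −0.26, Nr4a3 at −0.22 and Junb at −0.12, against −0.75, −0.95 and −0.80 without control replicate 1. Nr4a1 stood at −0.62 and −0.47 in the same settings. Of the Ier genes, Ier5 rose (1.14) beside Ier3, and Ier2 stood at −0.14 and changed sign when each array was centred on its median (0.06).

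Dusp6 and Dusp4 encode phosphatases that act on ERK, Dusp6 in the cytoplasm and Dusp4 in the nucleus. Dusp6 read 7.03 and 6.48 in controls against 7.28 and 7.33 in depleted cells. Dusp6 was higher on both depleted arrays, 0.25 above the nearer control, and the control pair was 0.55 apart. Its log2 fold change was 0.55 (95% interval 0.03 to 1.08, limma adjusted p = 0.207), and it was 0.28 without control replicate 2. Dusp4 read 5.88 and 5.49 in controls and 6.47 and 6.09 in depleted cells, all under the receptor background. Its log2 fold change was 0.60 (95% interval 0.07 to 1.12, limma adjusted p = 0.177) and 0.41 without control replicate 2. Neither gene passed the test. Each passed without control replicate 1 (limma adjusted p = 0.00463 for Dusp6 and 0.00783 for Dusp4), a setting in which 4884 genes of the table rose and 4236 fell.

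The 8 other MAP kinase phosphatase genes lay on both sides, and 0 rose or fell in the limma fit (1 was higher and 2 lower at an unadjusted p under 0.05). Dusp8, which acts on the stress-activated kinases, stood at −0.64 (limma adjusted p = 0.153, and −0.23 without control replicate 2), and the immediate early phosphatase gene Dusp1 at 0.54 (adjusted p = 0.217). With Dusp4 and Dusp6 included, 3 of 10 were higher without overlap, 3 lower and 4 overlapped, near the 27.4% and 33.3% of all genes. The median of the 8 was −0.14, close to that of all genes.

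Spry2 and Spry4 encode Sprouty proteins, membrane-associated inhibitors of receptor tyrosine kinase signalling to Ras and RAF. Spry2 read 8.18 and 8.31 in controls against 7.74 and 7.70 in depleted cells, all above the receptor background. The arrays of each group were close, 0.12 apart in controls and 0.047 in depleted cells, and the groups were 0.44 apart at the nearest. The log2 fold change was −0.53 (standard error 0.27, 95% interval −1.05 to −0.00054, limma adjusted p = 0.226), and leaving out 1 array moved it only between −0.59 and −0.46. Spry4 read 7.13 and 7.49 in controls and 6.93 and 6.85 in depleted cells, which put the controls above the receptor background and the depleted arrays below it. Its log2 fold change was −0.42 (95% interval −0.95 to 0.11, limma adjusted p = 0.306), and −0.24 without control replicate 2. Neither passed the test with all 4 arrays. Without control replicate 1, which left 1 control array, the log2 fold changes of Spry2 and Spry4 were −0.59 and −0.60. Of their relatives, named after their values were seen, Spry1 stood at −0.38, lower without overlap, and Spry3 at 0.0020 with overlapping groups, turning to −0.044 when arrays were centred on their medians and to −0.19 on the deposited log2 values.

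Spred1, a Sprouty-related protein that recruits the Ras GTPase activator neurofibromin to the membrane, was higher on both depleted arrays but did not pass the test. It read 6.73 and 6.14 in controls and 6.996 on both depleted arrays, just above the receptor background, where it took the same rank and so the same normalized value. In deposited intensity this was 108 and 78.4 against 119 and 125. The depleted arrays were 0.27 above the nearer control, and the controls were 0.59 apart, the wider of the 2 distances. The log2 fold change was 0.56 (95% interval 0.03 to 1.09, limma adjusted p = 0.201) and 0.27 without control replicate 2. Its relatives Spred2 and Spred3, named after their values were seen, stood at 0.34 and −0.52, both without overlap, and neither passed the test. The difference between the Sprouty and the Spred or phosphatase genes was not tested as such.

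Etv5, an ETS factor of the PEA3 group that responds to FGF and ERK signalling, had overlapping groups in this comparison. It read 9.99 and 9.82 in controls against 9.79 and 9.92 in depleted cells, on each array far above the receptor background. The log2 fold change was −0.05 (95% interval −0.57 to 0.48, limma adjusted p = 0.900), an interval that leaves room for a change of up to about that size either way. Its sign turned to 0.18 with each array centred on its median. A dimmer probe set of the gene read 9.37 and 9.24 against 8.97 and 9.27, a difference of −0.18, also with overlap. The related PEA3 genes Etv1 and Etv4, also named after their values were seen, stood at 0.61 and −0.30 and did not pass the test (limma adjusted p = 0.171 and 0.436).

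**Figure D2:**
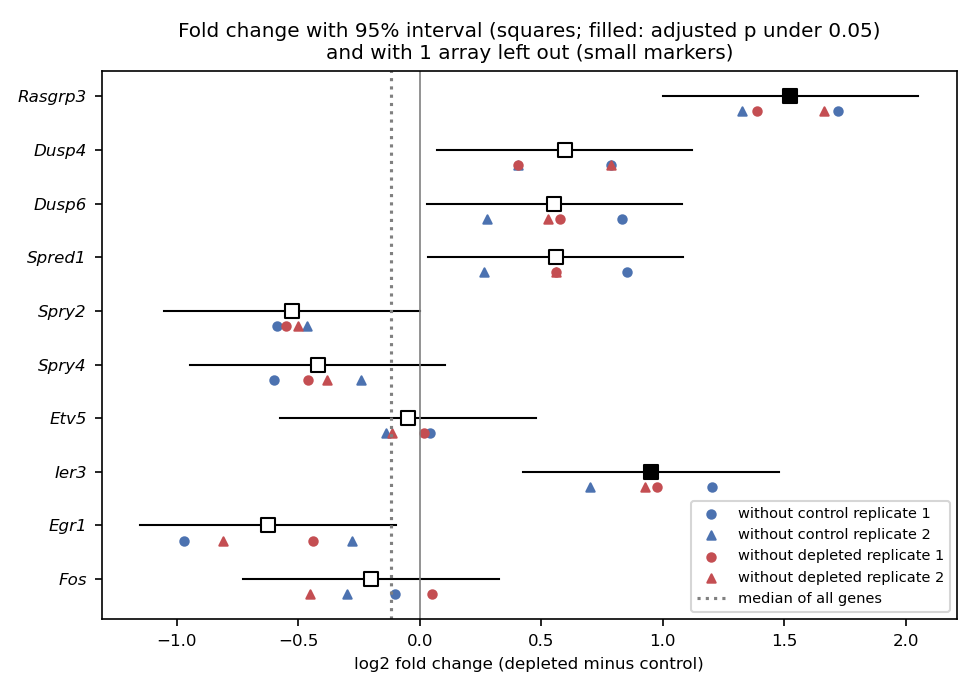
Log2 fold change of each of the 10 genes (depleted minus control) with its 95% interval from limma; filled squares passed at an adjusted p under 0.05, small markers give the value with 1 array left out, and the dotted line is the median of all genes at −0.12. Only Rasgrp3 and Ier3 are filled, and for every gene without overlap the values without control replicate 2 (blue triangles) lie nearer to 0 than those without control replicate 1 (blue circles).

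For all 8 genes without overlap, the depleted mean was farther from control replicate 2 than from control replicate 1. Across the table this held for 83.2% of the 12095 genes without overlap, and in the pathway lists below for 54 of 67. The correlation of normalized log2 signal across genes was 0.941 between the control arrays and 0.978 between the depleted arrays. Among the 10, the range of the control pair exceeded that of the depleted pair by the most for Spred1 (0.59 against 0), Dusp6 (0.55 against 0.049) and Ier3 (0.50 against 0.051). Fos was the clearest exception, with 0.20 in controls and 0.50 in depleted cells.

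**Figure D3:**
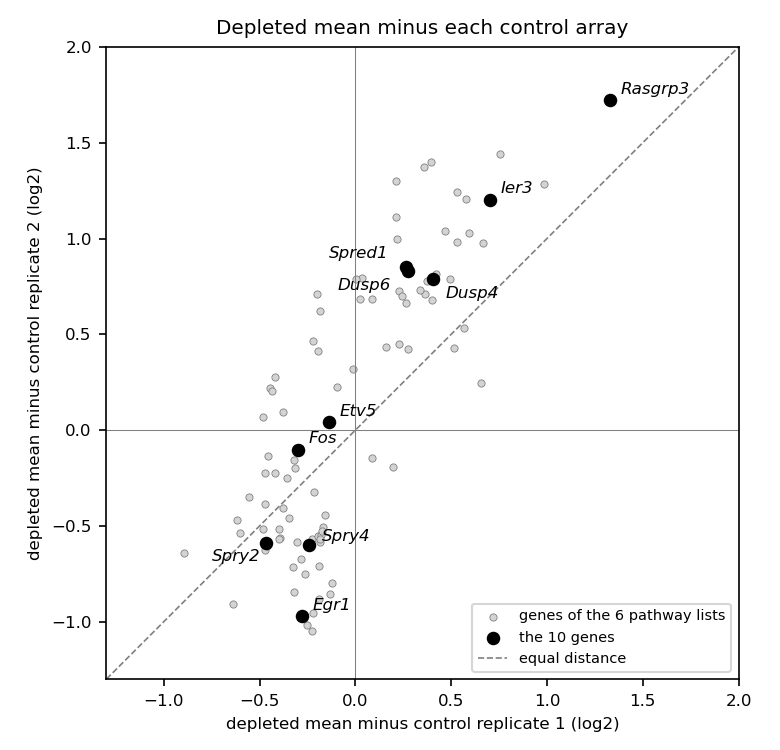
Depleted mean minus control replicate 1 (horizontal) against depleted mean minus control replicate 2 (vertical), both in log2 units, for the 10 genes (black) and the genes of the 6 pathway lists (grey); the dashed line marks equal values. The 5 higher genes lie above the line and the 3 lower ones below it, which places control replicate 2 farther from the depleted arrays for each of these 8.

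Other genes of the pathway were taken from 6 lists. Together 87 of their genes were measured. Of these 6 rose and 0 fell in the limma fit, against 2.62% and 0.105% of all genes, with a median log2 fold change of −0.14. At an unadjusted p under 0.05, 20 were higher and 11 lower, against 15.4% and 6.63% of all genes. Without overlap 27 were higher and 40 lower, against 27.4% and 33.3%. On the deposited log2 values 0 of the 87 rose. Of the 6 that rose, named below, Sos1, Rasa1, Lrig3, Rps6ka3 and Ets2 did not pass without control replicate 2. Sos1, Rps6ka3 and Ets2 also did not pass with the variance fitted as a trend over intensity. Under limma's robust settings these genes and Rasa1 did not pass.

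In the core cascade, 1 of 14 measured genes rose and 0 fell, and the median was 0.04. The gene was Sos1, the main Ras exchange factor downstream of Grb2. It read 7.07 and 6.07 in controls and 7.53 and 7.40 in depleted cells (log2 fold change 0.90, limma adjusted p = 0.0401), so that the controls differed by more than the nearest arrays of the groups did, and the value was 0.40 without control replicate 2. The RAF kinase gene Araf stood at −0.55 (limma adjusted p = 0.209). The genes of MEK1 and MEK2, the targets of the inhibitor in the medium, did not pass: Map2k1 stood at 0.30 and Map2k2 at 0.48, both named after their values were seen.

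Among 14 other Ras exchange factor and GTPase activator genes, 1 rose and 0 fell, with a median of −0.19. The Ras GTPase activator gene Rasa1 read 7.75 and 7.03 in controls and 8.47 and 8.09 in depleted cells (log2 fold change 0.89, limma adjusted p = 0.0416, and 0.53 without control replicate 2). Its relative Rasa2 stood at 0.82 (limma adjusted p = 0.0629). The neurofibromin gene Nf1, the partner of Spred1, stood at −0.12 with overlapping groups and is named after its values were seen.

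Of 10 further Sprouty, Spred and receptor-level inhibitor genes, 1 rose and 0 fell, with a median of 0.17. Lrig3, which encodes a transmembrane leucine-rich repeat protein, read 6.71 and 6.02 in controls and 7.52 and 7.40 in depleted cells (log2 fold change 1.10, limma adjusted p = 0.0101, and 0.75 without control replicate 2). Lrig1, an inhibitor of ErbB receptors, stood at 0.76 (limma adjusted p = 0.0895).

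Of 24 other immediate early genes, 1 rose and 0 fell, and the list lay lower, with a median of −0.33. Ier5 read 6.25 and 5.95 in controls and 7.20 and 7.27 in depleted cells (log2 fold change 1.14, limma adjusted p = 0.00753). It kept its call without control replicate 2 (0.99) and lost it on the deposited log2 values (limma adjusted p = 0.0510). The call was also lost without depleted replicate 1 (1.17) or 2 (1.10), as was that of Usp22. Klf10, a TGF-beta inducible factor gene, stood at 0.62 (limma adjusted p = 0.165). Without overlap 13 of the 24 were lower (54.2%) and 5 higher (20.8%), against 33.3% and 27.4% of all genes. The median was −0.18 without control replicate 2, where that of all genes was −0.05, and −0.46 without control replicate 1, where that of all genes was −0.15.

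Of 17 ERK-controlled transcription factor and effector genes, 2 rose and 0 fell, with a median of −0.24. The RSK kinase gene Rps6ka3, a direct ERK substrate, stood at 0.89 (limma adjusted p = 0.0414, and 0.58 without control replicate 2). It read 5.80 and 5.17 in controls and 6.63 and 6.12 in depleted cells, all under the receptor background. Ets2, an ETS factor phosphorylated by ERK, stood at 0.87 (limma adjusted p = 0.0470, and 0.36 without control replicate 2). Cic and Erf, transcriptional repressors that ERK inactivates, stood at −0.77 and −0.77 (limma adjusted p = 0.0826 and 0.0842). They and Srf are named after their values were seen. Cic read 9.84 and 10.1 in controls and 9.15 and 9.25 in depleted cells, and Erf 9.22 and 8.97 against 8.30 and 8.36, both without overlap and above the receptor background. Srf, the factor that binds the CArG box, stood at −0.57 (limma adjusted p = 0.196).

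**Figure D4:**
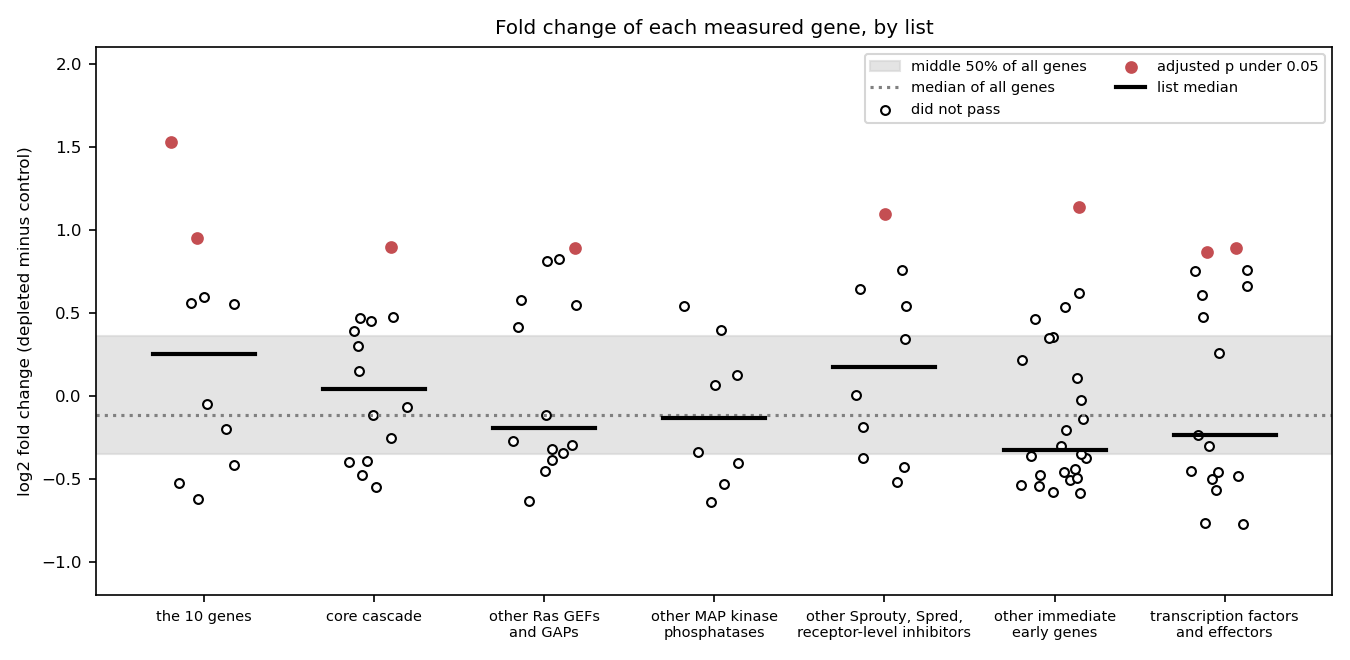
Log2 fold change (depleted minus control) of every measured gene in each list, with the list median as a black bar, genes at an adjusted p under 0.05 in red, and the median and middle 50% of all 19938 genes as a dotted line and a grey band. The red points, all above 0, number 2 among the 10 genes and 6 across the other lists, and the median of the other immediate early genes lies lowest at −0.33.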

How the data were processed

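RNA of 4 samples was measured on one-colour Affymetrix arrays, with total RNA extracted by Trizol and column, per the labels' protocols. The authors deposited 1 linear intensity per probe set and array for 28856 probe sets. How these were summarised, background-corrected and normalized is not given in the sources used here. Array medians ran from 110 to 128, the number of arrays limits the precision, and no 2 arrays were identical (0 pairs). They were log2-transformed and quantile-normalized between arrays. GEO's platform annotation, which can be old, named 21789 probe sets with 1 symbol (21698 matched RefSeq by gene ID) and 1621 with several, and 5446 are unnamed here. The brightest probe set was kept per gene. Groups were compared with limma 3.58.1 in R 4.3.3 (lmFit, eBayes, two-sided). The fit was tried on simulated data with the same spread for every gene, which cannot show how it handles unequal spread. Named genes were the 10 members, Usp22, the called genes of each list or its 2 lowest p-values, and the 3 genes most like each called member. Relatives of the members and any other gene named outside that rule were chosen after their values were seen. The members and lists were chosen with earlier results of these data known. Alternatives covered scaling, dim genes, probe sets, variance models, a replicate block and each array left out.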

Additional observations from a re-analysis of the deposited data

How the results depend on the processing

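With all 4 arrays, 2 of the 10 genes rose and 0 fell, and Rasgrp3 rose in each fit of all 4 arrays that held it. On the deposited log2 values 1 of the 10 rose, Rasgrp3. With the dimmest 0.25 of genes left out, and among genes above the receptor background alone, 1 rose, Ier3, since Rasgrp3 was no longer tested, and 3 and 2 genes were higher without overlap. With 1 array left out, between 0 and 5 of the 10 rose and between 0 and 3 fell, both highest without control replicate 1, and between 3 and 5 were lower without overlap. Etv5 turned to 0.18 under centring on array medians and to 0.041 on the deposited log2 values. With 1 array left out it ranged from −0.14 to 0.041, Fos from −0.45 to 0.051 and Usp22 from −1.15 to −1.09. At the 99th percentile of the receptor genes 3 of the 10 were above the background.

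In the pathway lists, 6 genes rose and 0 fell. On the deposited log2 values 0 rose. With the dimmest 0.25 left out 7 rose and 2 fell, and above the receptor background 3 rose and 2 fell. With an intensity trend 3 rose and 3 fell, with robust settings 2 rose and 0 fell, and with both 4 rose and 3 fell. With 1 array left out, between 0 and 28 rose and between 0 and 24 fell. Over all genes, 523 rose and 21 fell. Centring on the median gave 927 that rose and 20 that fell, and the deposited log2 values gave 75 and 10. Without the dimmest 0.25 of genes 739 rose and 36 fell, and above the receptor background 674 rose and 149 fell. The trend gave 326 that rose and 286 that fell, robust settings gave 295 and 11, and both together gave 381 and 339. With 1 array left out, the counts ran from 0 to 4884 and from 0 to 4236. The replicate numbers are shared by the groups but are not said to mark pairs, and deviations of same-numbered arrays from their group means correlated at 0.10 across genes. With the replicate number as a block, 2 of the 10 genes rose and 0 fell, and 856 genes of the table rose and 42 fell. The causes of these changes were not tested. The 2 arrays in each group limit every value, and Rasgrp3, Dusp4 and Fos lay under the receptor background on all 4 arrays.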
